A study of Mus musculus with 10 samples.

Results

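The 10 genes of the circadian clock examined here were measured by CUT&Tag in explanted mouse retinas and are Clock, Arntl (also called Bmal1), Per1, Per2, Per3, Cry1, Cry2, Nr1d1, Nr1d2 and Dbp. All rows of the deposited peak table with one of these gene symbols were taken, promoter or not. This gave 57 peaks of 108253, 14 at promoters and 43 at other positions, in 10 of 25400 gene symbols.

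The molecular clock is a transcriptional feedback loop that runs in most cells of the body. CLOCK and ARNTL bind E-boxes and activate the Per and Cry genes, whose proteins return to the nucleus and repress CLOCK and ARNTL. A further loop runs through the nuclear receptors REV-ERBα (Nr1d1) and REV-ERBβ (Nr1d2), which repress Arntl, and DBP carries the rhythm to output genes through D-boxes. The retina holds a clock of its own that is set by light and adapts photoreceptors and inner neurons to day and night.

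In CUT&Tag an antibody brings a transposase to a histone modification, and the fragments it cuts out are sequenced. The modifications of histone H3 profiled were H3K18La (lactylation of lysine 18) and H3K27Ac (acetylation of lysine 27), the latter a mark of active promoters and enhancers. Retinas of wild-type C57Bl/6J mice at postnatal day 28, dissected 2 hours after lights on and freed of pigment epithelium, were cultured for 48 hours in Neurobasal-A medium with 5 mM or 25 mM glucose and B27 and N2 supplements, then kept for 1 hour in Krebs' Ringer solution before dissociation. There were 3 libraries per glucose level for H3K18La and 2 for H3K27Ac, each from 500000 dissociated cells of the whole retina. The sample titles name no batch, so whether the libraries were made together is not known. All retinas were taken at 1 time of day, so no rhythm was measured, and the sources used here do not say which libraries came from the same animals.

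Levels are given in RPKM, reads per kilobase of peak, scaled to the library's total. The deposited values corresponded to whole reads from library totals of 1358008 to 5182766 for H3K18La and 4324289 to 7424470 for H3K27Ac. Over the clock gene peaks the median read number per library was 2 to 10 for H3K18La at 5 mM and 11 to 19 at 25 mM. For H3K27Ac it was 20 to 48 at 5 mM and 109 to 117 at 25 mM. Single H3K18La peaks at 5 mM were therefore imprecise, with 12 to 41 of the 57 clock peaks at 3 reads or fewer in a library. Values pooled over a gene rest on more reads, except at Per2 and Per3, which have 1 peak each. In the third 5 mM H3K18La library the Clock and Per1 loci still held 2 reads each and Per3 held 3. The share of reads that fell in any peak rose from 11.9% ± 0.0965 (SD, n = 3) to 32.6% ± 2.08 (n = 3) in H3K18La (exact permutation test, two-sided p = 0.1, the smallest it can give) and from 26.3% ± 7.35 (n = 2) to 63.0% ± 9.19 (n = 2) in H3K27Ac (exact test, p = 0.33, also the smallest it can give). Markers of rods summed to 11.5 to 13.5 RPKM for H3K18La at 5 mM and to 48.0 to 93.5 RPKM at 25 mM, whereas the 4 endothelial markers summed to 3.98 to 5.34 and 4.40 to 5.31 RPKM. Of 9 lists of cell type markers, all but the endothelium were higher at 25 mM without overlap in H3K18La (8 of 9). Müller glia summed to 2.42 to 6.51 and 9.88 to 13.8 RPKM, and microglia to 2.73 to 2.92 and 6.22 to 7.42 RPKM. For H3K27Ac 7 of 9 lists were higher without overlap, the rod markers summed to 43.2 to 74.4 and 194 to 304 RPKM and the endothelial ones to 9.02 to 10.4 and 7.58 to 9.39 RPKM, and the part of these shifts in the changes at the clock genes was not tested. Of 5 pigment epithelium markers 3 had a peak, and they summed to 1.19 to 2.07 and 3.12 to 3.70 RPKM in H3K18La and to 1.2 to 3.15 and 2.82 to 3.39 RPKM in H3K27Ac, with Rpe65, a defining gene, at 0 in every group. In bulk tissue, fewer cells of a type and less modified histone per cell cannot be told apart.

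The 14 promoter peaks covered every gene, with 3 for Per1, 2 each for Arntl and Dbp and 1 for each other gene. The 43 other peaks were unevenly spread, since Arntl held 26, Cry2 6, Cry1 5, Nr1d1 and Nr1d2 2 each, Clock and Per1 1 each, and Per2, Per3 and Dbp none. Some peaks could not be assigned to 1 gene alone. The Per3 promoter peak also overlapped Camta1, the larger Dbp promoter peak overlapped Car11, the Clock promoter peak overlapped Gm7467, the other Clock peak overlapped Gm43658, and 4 Cry2 peaks overlapped D930015M05Rik. Median GC content was 57.1% at the clock promoter peaks and 49.9% at the other clock peaks, against 57.5% and 48.8% over all promoter and all other peaks.

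Sequences near the gene starts show where clock elements lie within the promoter peaks. RefSeq promoter windows (GRCm38.p6, 250 bases before to 50 bases after a start) were matched for 9 of the 10 genes in 13 windows, and Per2 was not matched. Searches on both strands used the E-box CACGTG, its variant CACGTT, the D-box TTATGNAA, the cyclic AMP response element TGACGTCA and the ROR element. In the ROR element AGGTCA or GGGTCA follows AANT, and REV-ERB and ROR receptors bind to it. Per1 and Cry1 held the E-box, which 8.09% of all 27025 genes with windows held, and Cry1, Cry2 and Nr1d1 held the variant (5.44% of all genes). D-boxes stood in Per1 and Per3 (3.99%), the Arntl window held a ROR element (0.514%), and no window held the cyclic AMP element (2.03%). Windows of Clock, Dbp and Nr1d2 held none of these letters, but the peaks are wider than the windows. Within the 14 promoter peaks as a whole the E-box stood in 6 peaks of 5 genes (Per1, Cry1, Nr1d1, Nr1d2 and Dbp), the variant in 7, with Per2 and Clock among them, the D-box in 7, with Per2, Nr1d2 and Dbp among them, and the ROR element in 3 (Arntl, Clock and Dbp). Of all 14779 promoter peaks within the same widths, 590 to 2565 bases, 23.4% held the E-box, 21.1% the variant, 8.51% the D-box and 2.16% the ROR element, but these peaks had a median width of 1173 bases against 1618 for those of the clock genes. A match is a description of letters, not of binding. The 250 bases before the start of Per1, Cry1 and Per3 are given 5′ to 3′, with E-boxes, E-box variants and D-boxes in capitals, because each of these carries more than 1 element within a measured peak.
Per1 chr11:69098699-69098948 (plus strand): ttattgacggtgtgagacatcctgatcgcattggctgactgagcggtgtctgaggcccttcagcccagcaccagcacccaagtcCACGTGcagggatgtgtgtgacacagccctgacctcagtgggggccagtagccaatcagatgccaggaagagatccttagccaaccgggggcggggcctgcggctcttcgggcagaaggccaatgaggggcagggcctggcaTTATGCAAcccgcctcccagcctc
Cry1 chr10:85185055-85185304 (minus strand): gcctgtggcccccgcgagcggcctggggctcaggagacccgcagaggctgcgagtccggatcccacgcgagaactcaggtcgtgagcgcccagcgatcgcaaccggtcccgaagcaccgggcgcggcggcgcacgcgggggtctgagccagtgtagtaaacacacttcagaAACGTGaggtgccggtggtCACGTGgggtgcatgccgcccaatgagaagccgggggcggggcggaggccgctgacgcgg
Per3 chr4:151044666-151044915 (minus strand): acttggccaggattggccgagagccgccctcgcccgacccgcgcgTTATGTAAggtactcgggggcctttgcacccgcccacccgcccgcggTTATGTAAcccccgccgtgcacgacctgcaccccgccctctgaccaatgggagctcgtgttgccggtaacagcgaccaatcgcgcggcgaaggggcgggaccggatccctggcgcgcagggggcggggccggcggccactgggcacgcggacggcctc

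For the 3 other genes with a match, 30 bases around the element are given, with the E-box variant of Cry2 and of Nr1d1 and the ROR element of Arntl in capitals. The variant is read on the opposite strand in both, as AACGTG, and the Arntl element lies 27 bases after the start.
Cry2 chr2:92434218-92434247 (minus strand): acacatggtgggAACGTGagggggcggagc
Nr1d1 chr11:98775388-98775417 (minus strand): cgcacagatctcAACGTGccggctgctgga
Arntl chr7:113207528-113207557 (plus strand): ggaaggcagaAAGTAGGTCAgggacggagg

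The effect of glucose on both marks at the clock genes was asked first for whole loci, taken as the width-weighted mean RPKM over all peaks of a gene. Both marks were higher at 25 mM than at 5 mM at all 10 clock loci, with no overlap between the groups' libraries. The share of all loci without overlap was not counted, and among all single peaks it was 36.6% in H3K18La and 53% in H3K27Ac. Scaling to reads in peaks turned the H3K18La change negative at Clock, Per2 and Dbp and the H3K27Ac change negative at Per3. In H3K18La the 10 loci rose 1.77-fold (Per2) to 3.80-fold (Per1), and all 10 passed the test (limma, Benjamini-Hochberg adjusted p under 0.05), where 57% of all 14877 tested loci were called higher. In H3K27Ac they rose 2.19-fold (Per3) to 4.05-fold (Per1), and again all 10 passed, where 62.2% of 17544 loci were called. Folds are on the log2(RPKM + 0.5) scale, which understates the change of low values. The median log2 change of the clock loci was 1.33 in H3K18La and 1.52 in H3K27Ac, against 0.97 and 1.01 over all tested loci. With a minimum mean RPKM of 2 the excess in H3K18La was small, at 1.38 for the 8 clock loci left against 1.35 over all, and all 8 were called, where 89.8% of all were. The 10 clock loci in H3K27Ac were again called, where 79.6% of all were.

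**Figure D1:**
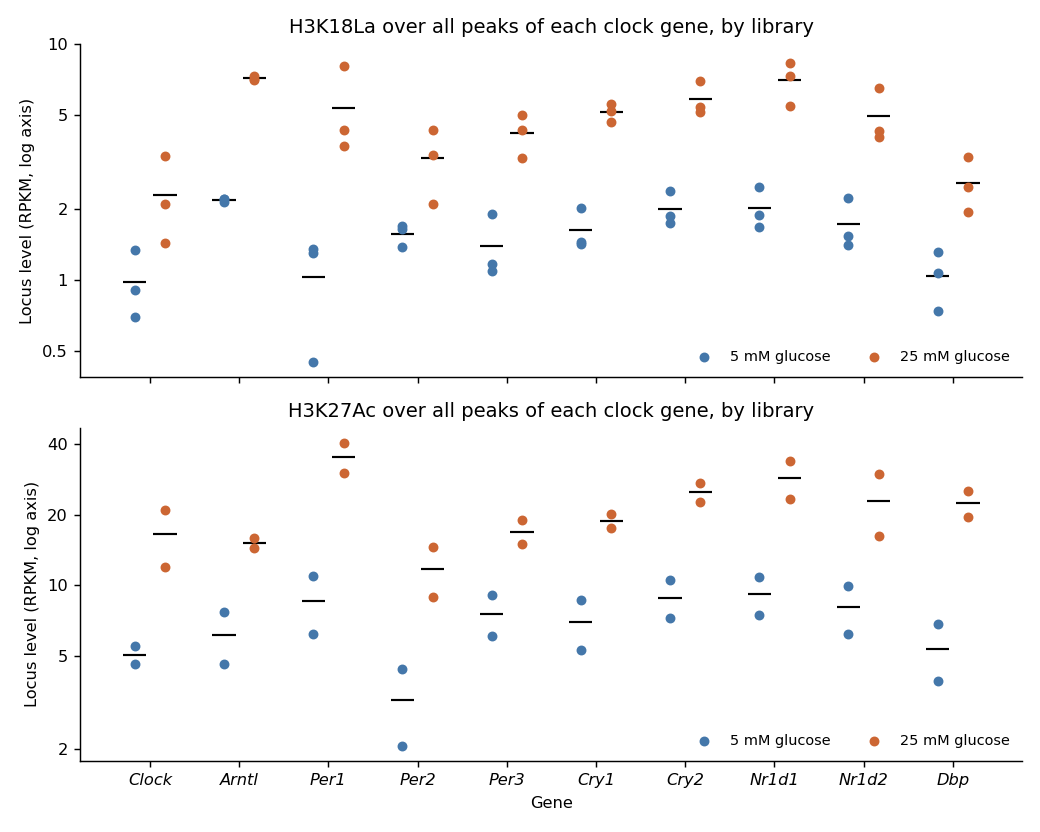
Locus level in RPKM on a log axis for each of the 10 clock genes, H3K18La above and H3K27Ac below, with 1 point per library and a bar at each group's mean. In both marks every 25 mM library stands above every 5 mM library of the same gene, and the share of all loci that do so was not counted. Scaling to reads in peaks reversed the mean difference at Clock, Per2 and Dbp in H3K18La and at Per3 in H3K27Ac.

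These calls depended on what a library is scaled to. Each library was also centred on the median of all tested loci. This moved the median change of all loci from 0.97 to 0.13 in H3K18La and from 1.01 to -0.01 in H3K27Ac. After centring, 2 clock loci remained called higher in H3K18La (Arntl and Nr1d1), where 1311 of 14877 loci were. In H3K27Ac 0 clock loci remained, where 159 of 17544 loci were called higher. With scaling to reads in peaks, 0 of the 10 loci passed in either mark, and 0 of all loci did. The H3K27Ac calls also changed when 1 library was left out, since 0 clock loci passed without the first 25 mM library, 1 (Per2) without the second, 4 without the first 5 mM library and 10 without the second. Such a fit leaves 1 library in a group, which is assumed to vary as the other group does, and the median log2 change of the clock loci stayed between 1.24 and 1.86 in the 4 fits. Without the minimum mean RPKM, 0 clock loci passed in H3K27Ac.

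Among single peaks the same direction was seen. In H3K18La, 51 of the 57 clock peaks were tested and 34 rose, 0 fell and 17 did not pass, where 37.3% of all 65614 tested peaks were called higher. Promoter peaks rose in 9 of 13 (33.3% of all promoter peaks) and other peaks in 25 of 38 (38.2% of all others). In H3K27Ac, 36 of 55 tested clock peaks rose and 0 fell (33.9% of all 72442 peaks were called higher). Among the 36 was the Arntl peak chr7:113288257-113288495, although its groups overlapped. It held 0 and 8.08 RPKM at 5 mM and 5.82 and 2.82 RPKM at 25 mM, and its log2 change was -0.91 without the first 5 mM library. H3K27Ac promoter peaks of the clock genes rose in 13 of 14 (57% of all promoter peaks), and their other peaks in 23 of 41 (27.8%). Without either 25 mM H3K27Ac library, in the same kind of fit, 0 clock peaks passed (0.0142% and 1.37% of all peaks), though 53 of 54 and 54 of 55 kept a positive log2 value and the median without the second was 1.36. Scaling to reads in peaks left 0 in both marks. The median log2 change of the clock peaks was 1.45 in H3K18La and 1.31 in H3K27Ac, against 1.10 and 0.84 over all tested peaks. With a minimum mean RPKM of 2 it was 1.49 and 1.37, against 1.44 and 1.06 over all, and 35 of 46 clock peaks rose in H3K18La (68.5% of all) and 43 of 52 in H3K27Ac (52% of all). The libraries of the glucose levels did not overlap, with 25 mM higher, at 41 of 57 clock peaks in H3K18La (36.6% of all peaks) and at 53 in H3K27Ac (53% of all peaks). Of the 50 clock peaks tested in both marks, 24 were called higher in both, where 22% of all 57421 such peaks were.

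**Figure D2:**
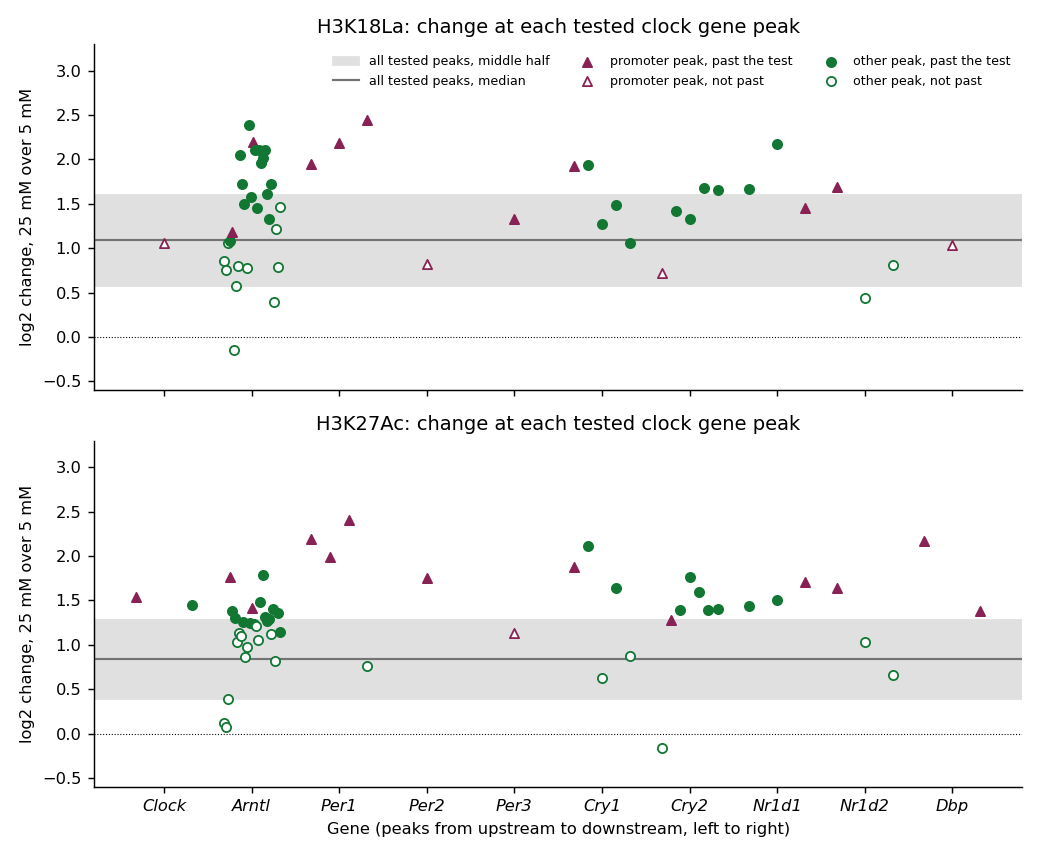
Log2 change from 5 mM to 25 mM at each tested clock gene peak (51 in H3K18La above, 55 in H3K27Ac below), with triangles for promoter peaks, circles for others and filled symbols for peaks past the limma test (none with scaling to reads in peaks). The grey line and band give the median (1.10 and 0.84) and the span from lower to upper quartile of all tested peaks, and Per1 promoters lie above the band in both marks and the 3 tested upstream Arntl peaks lie at or below its lower edge in H3K27Ac.

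The activator arm was uneven between its partners in H3K18La. In H3K27Ac at 25 mM the Clock and Arntl loci lay at 16.5 and 15.2 RPKM, and their libraries overlapped. CLOCK binds E-boxes as the partner of ARNTL, and its locus had the lowest H3K18La of the 10 genes at both glucose levels. Its H3K18La stood at 1.34, 0.911 and 0.696 RPKM at 5 mM and 3.36, 2.09 and 1.43 RPKM at 25 mM. The log2 change was 0.88 (SE 0.31, limma adjusted p = 0.0436), and it was 0.03 after centring on the median of all loci and -0.20 with scaling to reads in peaks. The call was lost without the first or second 25 mM library (adjusted p = 0.122 and 0.0901) and without 5 mM library 2 or 3 (adjusted p = 0.104 and 0.107). In H3K27Ac the locus stood at 4.59 and 5.48 RPKM at 5 mM and 21 and 12 RPKM at 25 mM. This was a log2 change of 1.57 (SE 0.49, limma adjusted p = 0.00555).

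Clock held a promoter peak at chr5:76303749-76305302 and a peak within the gene at chr5:76297099-76297661, annotated to the exon of the overlapping gene Gm43658. H3K18La in the latter was 1.68, 1.03 and 0 RPKM at 5 mM and 0.904, 1.31 and 0.599 RPKM at 25 mM, so the groups overlapped at values of a few reads and the peak fell under the minimum mean of 1 RPKM needed for testing. H3K27Ac in the same peak was 2.88 and 3.72 RPKM at 5 mM and 7.41 and 12.9 RPKM at 25 mM. That rise had a log2 value of 1.45 (SE 0.46, limma adjusted p = 0.0106). At the promoter peak H3K18La was 1.22, 0.869 and 0.948 RPKM at 5 mM and 4.26, 2.37 and 1.74 RPKM at 25 mM, without overlap but not past the test at a log2 value of 1.05 (SE 0.44, limma adjusted p = 0.0765). Its H3K27Ac rose by 1.54 on the log2 scale (SE 0.49, limma adjusted p = 0.0112).

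Arntl encodes the indispensable partner of CLOCK and had the highest H3K18La of the 10 loci at both glucose levels. Its locus stood at 2.21, 2.19 and 2.14 RPKM at 5 mM and 7.34, 7.07 and 7.13 RPKM at 25 mM. The libraries of each group differed by little, at 2.18 ± 0.0361 (SD, n = 3) and 7.18 ± 0.141 RPKM (n = 3), and the log2 change was 1.52 (SE 0.12, limma adjusted p = 0.0002). This call held without any 1 library and after centring on the median (log2 0.67). At 25 mM the locus lay at the 95.5th percentile of all loci in H3K18La and at the 87.9th in H3K27Ac. Its H3K27Ac stood at 4.6 and 7.68 RPKM at 5 mM and 15.9 and 14.4 RPKM at 25 mM. That was a log2 change of 1.27 (SE 0.49, limma adjusted p = 0.0202).

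The 28 Arntl peaks ran from 29.2 kb before to 80.9 kb after the start, and H3K18La was not highest at the start itself. Segments were drawn after their values were seen, so they are described without a test of their own. The promoter peak over the start, chr7:113206629-113208647, held 3.76, 1.05 and 3.28 RPKM of H3K18La at 5 mM and 7.06, 6.09 and 5.34 at 25 mM. A block of 9 peaks centred 31.6 to 48.4 kb after the start held 2.68, 3.01 and 2.96 RPKM at 5 mM and 11.8, 11.7 and 11.8 RPKM at 25 mM. All 9 rose in H3K18La, by 1.33 to 2.19 on the log2 scale. Between start and block, 5 of 9 peaks rose, after the block 1 of 5, and before the start 1 of 4, where 37.3% of all peaks did. The call before the start was lost in 5 of the 6 fits without 1 library.

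The block held the 2 Arntl peaks chosen by level alone. The promoter peak with the highest level, chr7:113238248-113239908, is annotated to the start of a retained-intron transcript inside the gene and not to the main start. Its H3K18La was 2.28, 3.48 and 3.1 RPKM at 5 mM and 13.5, 15 and 17.3 RPKM at 25 mM, a log2 rise of 2.19 (SE 0.27, limma adjusted p = 0.000416). The non-promoter peak with the highest level was intronic, at chr7:113245435-113245876. There H3K18La was 2.15, 2.62 and 6.66 RPKM at 5 mM and 19.6, 16.1 and 13.7 RPKM at 25 mM, a log2 rise of 2.11 (SE 0.36, limma adjusted p = 0.00155). These peaks lay at the 98.7th and 98.5th percentile of all promoter and all non-promoter peaks in H3K18La at 25 mM.

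H3K27Ac along Arntl was high both at the start and in the block. The peak over the start, with 5.27 and 8.93 RPKM at 5 mM and 30.9 and 19.3 at 25 mM, overlapped the range of the block, which held 6.55 and 11.6 RPKM at 5 mM and 23.2 and 22.4 RPKM at 25 mM. The start rose by 1.76 on the log2 scale (SE 0.50, limma adjusted p = 0.00563), and 7 of the 9 block peaks rose. At the intronic peak with the highest level, H3K27Ac did not pass, with a log2 value of 1.05 (SE 0.53, limma adjusted p = 0.105) that became -0.20 with scaling to reads in peaks. The 4 upstream peaks together held 1.39 and 1.43 RPKM at 5 mM and 2.03 and 1.51 RPKM at 25 mM, and 0 of the 3 tested rose. They were not alike, since the one nearest the start held 4.54 and 5.06 RPKM at 5 mM and 6.83 and 6.09 RPKM at 25 mM. The ratio of H3K27Ac to H3K18La at 25 mM was 4.08 at the start, 1.93 in the block and 0.617 over the upstream peaks together, with 1.59 in the one nearest the start.

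**Figure D3:**
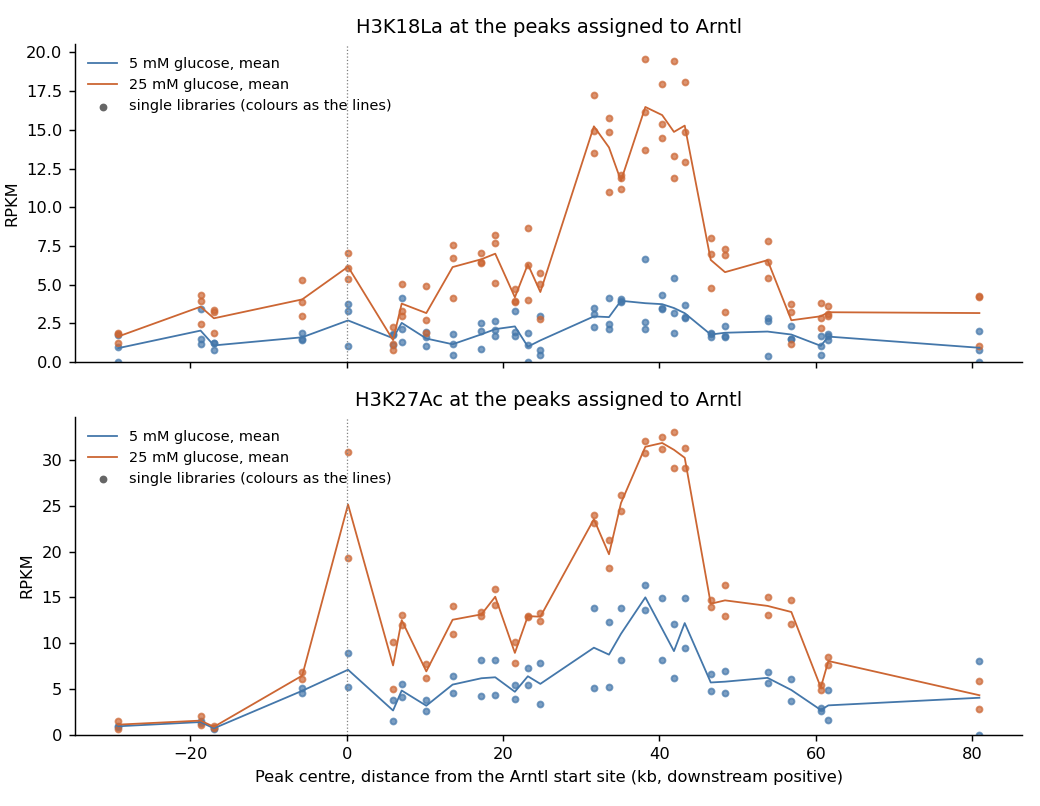
H3K18La (above) and H3K27Ac (below) in RPKM at the 28 Arntl peaks against the distance of the peak centre from the start site in kb, with lines for group means and points for libraries. At 25 mM H3K18La is highest in the block 31.6 to 48.4 kb after the start, whereas H3K27Ac is high both there and at the start.

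In the repressor arm Per1 had the largest changes. PER1 is a core repressor whose gene also answers acutely to light. H3K18La over the locus was 1.3, 1.35 and 0.448 RPKM at 5 mM and 8.05, 4.34 and 3.69 RPKM at 25 mM. H3K27Ac was 6.19 and 11 RPKM at 5 mM and 40.7 and 30.1 RPKM at 25 mM. Rises of 1.93 (SE 0.36, limma adjusted p = 0.00374) and 2.02 (SE 0.50, limma adjusted p = 0.000929) on the log2 scale were the largest of the 10 loci in each mark. In H3K27Ac Dbp stood close, at 2.00 (SE 0.50), and without the first 25 mM library it was 1.82 against 1.81 for Per1. After centring on the median of all loci the Per1 rises were 1.08 and 0.99, with adjusted p of 0.0883 and 0.0504 in limma. Per1 had the highest H3K27Ac of the clock loci at 25 mM, at percentile 99.1 of all loci.

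All 3 Per1 promoter peaks rose in both marks. The one with the highest level, chr11:69098480-69099316, covers the E-box and D-box printed above. Its H3K27Ac was 11.1 and 15.2 RPKM at 5 mM and 63.1 and 44.3 RPKM at 25 mM, a log2 rise of 1.99 (SE 0.54, limma adjusted p = 0.00369). Its H3K18La was 2.83, 2.31 and 0 RPKM at 5 mM and 12.2, 5.58 and 5.24 RPKM at 25 mM, a log2 rise of 2.19 (SE 0.65, limma adjusted p = 0.0217), and the third 5 mM library, the shallowest, had no read there. Without that library the H3K18La rise was 2.49-fold in place of 4.55-fold, and without the first 25 mM library the call was lost (adjusted p = 0.0961). A second promoter peak 4.05 kb before that start, chr11:69094410-69095397, rose by 1.95 and 2.20, and another, chr11:69099812-69100401, rose by 2.44 and 2.40, the largest log2 values of any clock peak in each mark. In H3K27Ac the latter was 1.54 without the first 5 mM library and 3.26 without the second. The single other peak lay in the 3′ UTR, and H3K27Ac there did not pass the test, with 2.92 and 3.88 RPKM at 5 mM and 5.75 and 6.34 at 25 mM.

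Per2 and Per3, the other PER repressors, had 1 promoter peak each. Per2, at chr1:91458166-91460407, held H3K18La of 1.69, 1.38 and 1.64 RPKM at 5 mM and 4.31, 3.4 and 2.11 RPKM at 25 mM. That was the smallest locus change in H3K18La, 0.82 (SE 0.25, limma adjusted p = 0.0254), and it was -0.02 after centring and -0.37 with scaling to reads in peaks. The locus call was lost without the first or second 25 mM library (adjusted p = 0.0599 and 0.0748) or the second 5 mM library (adjusted p = 0.0785), and the same reads did not pass among single peaks (limma adjusted p = 0.114). H3K27Ac at Per2 was 2.06 and 4.38 RPKM at 5 mM and 14.5 and 8.89 RPKM at 25 mM, the lowest of the 10 loci at both glucose levels, with a log2 rise of 1.75 (SE 0.44, limma adjusted p = 0.00112).

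The Per3 peak, at chr4:151043361-151045388, covers both D-boxes shown above and held H3K18La of 1.17, 1.9 and 1.09 RPKM at 5 mM and 5.02, 3.27 and 4.32 RPKM at 25 mM. This rise was 1.33 (SE 0.23, limma adjusted p = 0.00283) on the log2 scale, and as a single peak it was not called without the first or last 25 mM library (adjusted p = 0.0604 and 0.0592). Its H3K27Ac was 6.04 and 9.05 RPKM at 5 mM and 18.9 and 14.9 RPKM at 25 mM. The groups did not overlap, but the log2 value of 1.13 was the smallest locus change in H3K27Ac (limma adjusted p = 0.0396), it did not pass as a single peak (adjusted p = 0.0611), and it was -0.09 with scaling to reads in peaks.

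The cryptochromes are the repressors that hold CLOCK and ARNTL inactive. H3K18La of Cry1, over 6 peaks, was 2.03, 1.44 and 1.42 RPKM at 5 mM and 5.22, 5.58 and 4.69 RPKM at 25 mM. For H3K27Ac the locus held 5.29 and 8.61 RPKM at 5 mM and 20.1 and 17.5 RPKM at 25 mM. Both groups of libraries stood apart, and the log2 rises were 1.42 (SE 0.17, limma adjusted p = 0.0006) and 1.41 (SE 0.50, limma adjusted p = 0.0128). The Cry1 promoter peak, chr10:85184405-85185735, covers the E-box and its variant. It was low in H3K18La at 5 mM, at percentile 24 of all promoter peaks, and at percentile 79.2 at 25 mM. The peak held 2, 3 and 1 H3K18La reads in the 5 mM libraries, so the former percentile is imprecise. Its H3K18La was 0.712, 0.435 and 0.553 RPKM at 5 mM and 5.35, 3.88 and 2.03 RPKM at 25 mM, a log2 rise of 1.92 (SE 0.46, limma adjusted p = 0.00785). Its H3K27Ac was 5.73 and 6.05 RPKM at 5 mM and 33.2 and 15.9 RPKM at 25 mM, a log2 rise of 1.88 (SE 0.50, limma adjusted p = 0.00307).

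Within Cry1, 3 intronic peaks 18.9 to 26.4 kb after the start were already marked at 5 mM. The one with the highest level, chr10:85165953-85166432, held 3.95, 2.01 and 4.6 RPKM of H3K18La at 5 mM and 8.48, 7.69 and 10.5 at 25 mM. It rose in H3K18La by 1.28 (SE 0.33, limma adjusted p = 0.0125), which became -0.04 with scaling to reads in peaks and was not called without the last 25 mM library (adjusted p = 0.0518). H3K27Ac there was 9.64 and 15.8 RPKM at 5 mM and 16.5 and 22.7 at 25 mM and did not pass, with a log2 value of 0.63 (SE 0.51, limma adjusted p = 0.327), -0.05 after centring on the median. A distal peak 19.4 kb before the start had 0 reads of H3K27Ac in both 5 mM libraries and under 1 RPKM at 25 mM, and it was not tested.

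H3K18La of Cry2, over 7 peaks, was 2.38, 1.86 and 1.75 RPKM at 5 mM and 6.99, 5.13 and 5.43 RPKM at 25 mM. Its H3K27Ac was 7.21 and 10.5 RPKM at 5 mM and 27.3 and 22.7 RPKM at 25 mM. The log2 rises of the locus were 1.34 (SE 0.18, limma adjusted p = 0.000827) and 1.46 (SE 0.50, limma adjusted p = 0.0107). Unlike at Per1, the highest H3K27Ac of Cry2 lay beside and not on the promoter, in the first kilobases of the gene. The intronic peak chr2:92427768-92428357 held 11 and 22.4 RPKM at 5 mM and 58 and 51.4 at 25 mM, the 99.8th percentile of all non-promoter peaks, and rose by 1.76 (SE 0.54, limma adjusted p = 0.00931). Its H3K18La was 6.43, 1.96 and 2.5 RPKM at 5 mM and 13.8, 7.92 and 6.29 RPKM at 25 mM, a log2 rise of 1.33 (SE 0.43, limma adjusted p = 0.0297) although the groups overlapped through the first 5 mM library. That call was lost without the first or second 25 mM library (adjusted p = 0.119 and 0.0622) and without 5 mM library 2 or 3 (adjusted p = 0.109 and 0.0616), and the change was 0.02 with scaling to reads in peaks. The promoter peak itself, at chr2:92433491-92435065, had H3K18La of 1.81, 1.23 and 3.27 RPKM at 5 mM and 6.14, 2.81 and 2.57 RPKM at 25 mM. Its groups overlapped, it did not pass with a log2 value of 0.72 (SE 0.44, limma adjusted p = 0.209), and the value was -0.19 after centring and -0.50 with scaling to reads in peaks. Its H3K27Ac rose by 1.28 (SE 0.50, limma adjusted p = 0.0342), a call also lost without the first 5 mM library (adjusted p = 0.112), from 5.14 and 9.51 to 20.3 and 15.6 RPKM.

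The REV-ERB receptors repress Arntl through ROR elements such as the one printed above. H3K18La of Nr1d1 was 2.48, 1.88 and 1.67 RPKM at 5 mM and 8.32, 7.32 and 5.44 RPKM at 25 mM. Its H3K27Ac was 7.46 and 10.9 RPKM at 5 mM and 34.1 and 23.4 RPKM at 25 mM. It ranked next to Arntl in H3K18La at both glucose levels and rose by 1.58 (SE 0.20, limma adjusted p = 0.000746) and, in H3K27Ac, by 1.60 (SE 0.50, limma adjusted p = 0.00613). After centring on the median, its H3K18La change of 0.73 still passed (limma adjusted p = 0.0462).

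H3K18La of Nr1d1 was highest away from its promoter, in intergenic peaks 6.4 and 7.7 kb before the start, chr11:98781612-98782011 and chr11:98782184-98783877. The former held 5.93, 4.34 and 0 RPKM at 5 mM and 16.5, 11.1 and 6.74 RPKM at 25 mM, with no read in the third 5 mM library, and rose by 2.17 (SE 0.77, limma adjusted p = 0.0451). Without that library the change was 1.01 and without the first 5 mM library 2.86, and the call was lost without any 1 of the 25 mM libraries (adjusted p = 0.151, 0.0951 and 0.0561). The promoter peak, chr11:98773557-98775866, which covers the E-box variant, held H3K18La of 2.05, 1.25 and 0.956 RPKM at 5 mM and 5.29, 6.28 and 2.92 RPKM at 25 mM. It rose by 1.45 (SE 0.41, limma adjusted p = 0.0177), a call lost without the first or second 25 mM library (adjusted p = 0.0574 and 0.0875). H3K27Ac at the promoter was 7.51 and 10.5 RPKM at 5 mM and 38.8 and 23.4 at 25 mM, and at the former intergenic peak it was 9.25 and 11.7 RPKM and 29.9 and 31 RPKM. Both rose, by 1.71 and 1.51.

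Nr1d2, the partner receptor of Nr1d1, had a single peak that passed the test, its promoter. The locus held H3K18La of 2.23, 1.41 and 1.54 RPKM at 5 mM and 6.5, 4.3 and 4.05 RPKM at 25 mM. H3K27Ac over it was 6.21 and 9.96 RPKM at 5 mM and 29.9 and 16.2 RPKM at 25 mM. These were rises of 1.28 (SE 0.23, limma adjusted p = 0.00311) and 1.42 (SE 0.50, limma adjusted p = 0.0124). The promoter peak, chr14:18237925-18239849, held H3K18La of 3.45, 1.1 and 1.53 RPKM at 5 mM and 10.3, 6 and 5.6 RPKM at 25 mM and rose by 1.69 (SE 0.41, limma adjusted p = 0.00921). In H3K27Ac the promoter rose by 1.64 (SE 0.52, limma adjusted p = 0.0115). Neither the exonic nor the intronic peak passed in either mark. The exonic peak, chr14:18219008-18219993, had log2 values of 0.82 in H3K18La and 0.66 in H3K27Ac, which were -0.09 and -0.02 after centring on the median and -0.35 and -0.54 with scaling to reads in peaks.

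Dbp, the output activator that binds D-boxes, was low in H3K18La among the 10 clock genes, at percentiles 65.7 and 73.9 of all loci at 5 mM and 25 mM. Its H3K18La was 1.31, 1.07 and 0.741 RPKM at 5 mM and 3.33, 2.47 and 1.95 RPKM at 25 mM. This rise of 0.99 (SE 0.25, limma adjusted p = 0.0123) was -0.11 with scaling to reads in peaks. H3K27Ac at Dbp was 3.9 and 6.8 RPKM at 5 mM and 25.3 and 19.5 RPKM at 25 mM. The rise of 2.00 (SE 0.50, limma adjusted p = 0.000928) was second to that of Per1, and after centring it was 0.98 and did not pass (limma adjusted p = 0.05). The larger promoter peak, chr7:45703882-45706446, rose in H3K27Ac by 2.17, from 4.69 and 7.78 to 33.4 and 25 RPKM. In H3K18La this peak did not pass, with a log2 value of 1.04 (SE 0.38, limma adjusted p = 0.0519) that was -0.12 with scaling to reads in peaks. The second promoter peak, at a retained-intron transcript, was tested in H3K27Ac alone, where it rose by 1.38, a call also lost without the first 5 mM library (adjusted p = 0.077).

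Whether glucose moved the marks differently was tested as a glucose by mark interaction over all 10 libraries. No clock locus passed: 0 of 10 were called in limma (0% of 17359 loci), with 1 clock locus and 1239 of all loci at an unadjusted p under 0.05. That locus was Dbp, where H3K27Ac rose by 1.01 more than H3K18La on the log2 scale (95% interval 0.02 to 2.00, limma adjusted p = 0.688). For Per2 the difference was 0.92 (-0.22 to 2.06). At Arntl it was -0.24 (-0.999 to 0.51). Arntl had the narrowest interval of the 10 loci. Among single peaks 0 of 56 clock peaks and 0 of 72467 in all were called by limma (0%), with 1 clock peak and 3650 of all peaks at an unadjusted p under 0.05.

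The level of 1 mark against the other was compared between promoters and other peaks. RPKM of different antibodies are not on a shared scale, so ratios are read against those of other peaks. At 25 mM the ratio of H3K27Ac to H3K18La had a median of 6.38 over the 14 clock promoter peaks (1.54 to 8.96) and of 2.18 over the 43 other clock peaks (0.306 to 10.8), so the ranges overlapped. Over all promoter peaks it was 3.37 and over all other peaks 1.07. The lowest clock promoter value was that of the intragenic Arntl promoter peak and the highest that of Dbp. At 5 mM the clock promoters had a median of 5.52, against 3.41 for all promoters, and the other clock peaks 3.08, against 1.42 for all others. These ratios are descriptions, and no test was made.

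**Figure D4:**
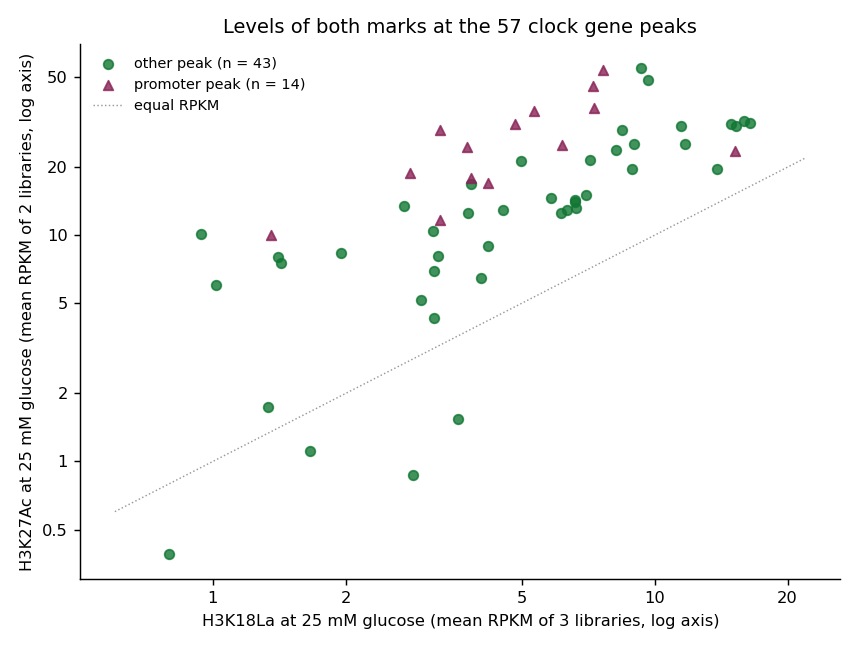
Mean RPKM at 25 mM of H3K27Ac against H3K18La on log axes for the 57 clock peaks, with triangles for the 14 promoter peaks and circles for the 43 others. The ratio of H3K27Ac to H3K18La has a median of 6.38 at the promoter peaks and 2.18 at the others, and the intragenic Arntl promoter peak has the lowest promoter ratio, 1.54.

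The order of the loci was loosely fixed. In H3K18La at 25 mM it ran from Arntl, Nr1d1, Cry2, Per1 and Cry1 to Nr1d2, Per3, Per2, Dbp and Clock, and each of the 9 neighbouring pairs overlapped between libraries. In H3K27Ac at 25 mM it ran from Per1, Nr1d1, Cry2, Nr1d2 and Dbp to Cry1, Per3, Clock, Arntl and Per2, and again all 9 pairs overlapped. At 5 mM the ranges overlapped in 9 of 9 pairs for H3K18La and in 8 of 9 for H3K27Ac.

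Of 22 other genes of the clock (nuclear receptors, PAR-bZIP factors, kinases and ubiquitin ligases), 19 were tested in H3K18La, and 11 rose and 0 fell, near the 57% of all loci called higher. In H3K27Ac all 22 were tested, and 19 rose and 0 fell, where 62.2% of all loci were called higher. Their median log2 change was 0.93 in H3K18La and 1.25 in H3K27Ac, against 0.97 and 1.01 over all loci. The largest H3K18La rises were at Usp2, a deubiquitinase (1.71, SE 0.18), Bhlhe41, a repressor at E-boxes (1.60, SE 0.14), and Tef, a relative of Dbp (1.53, SE 0.21). In H3K27Ac they were at Nono, Csnk1a1 and Usp2 (2.04, 1.96 and 1.79). Npas2, Arntl2 and Bhlhe40 did not pass in either mark.

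Of 11 retinal inputs and outputs of the clock, 9 had a peak and none fell. In H3K18La 5 of 7 tested rose and in H3K27Ac 9 of 9 did, where 57% and 62.2% of all loci were called higher. The median log2 changes were 1.56 and 1.45, against 0.97 and 1.01 over all loci. Drd4, the dopamine receptor of photoreceptors, held 0.523, 0.923 and 0.813 RPKM of H3K18La at 5 mM and 8.99, 5.97 and 4.84 at 25 mM, a log2 rise of 2.47 (SE 0.25, limma adjusted p = 0.00034). Opn4, which encodes melanopsin, held 4.11, 4.45 and 3.97 RPKM and 20.3, 16.7 and 18.3 RPKM, a level above every clock locus, and rose by 2.01 (SE 0.12, limma adjusted p = 0.0002). Adcy1 rose by 1.66. In H3K27Ac the largest rises were at Cirbp and Rbm3, cold-inducible RNA-binding proteins (2.17 and 1.72), and at Drd4 (1.62).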

How the data were processed

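CUT&Tag was performed on 10 libraries, H3K18La with 3 and H3K27Ac with 2 per glucose level. The authors used nf-core/cutandrun for alignment to GRCm38, MACS for peaks outside blacklisted regions, consensus peaks per group, and ChIPseeker 1.34.1 for annotation. The number of deposited peaks equals that of the merged consensus set the study describes for developing retina, so the peaks appear to have been defined there and not in these libraries, and signal outside them was not measured. The authors deposited RPKM values, which were whole multiples of 1 read (within 0.01 for 100% of values), so reads were recovered. A further deposited file, with the authors' fold changes and p-values for H3K18La, was not used. Groups came from the sample labels, which name H3K18La and H3K27Ac, while the labels' extraction text names an H3K9me3 antibody and the study's methods an H3K27Ac antibody.

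Peaks (108253) and loci, each a width-weighted mean over a symbol's peaks, were fitted with limma 3.58.1 (trend) in R 4.3.3 on log2(RPKM + 0.5), with a minimum mean RPKM of 1 and Benjamini-Hochberg adjustment over all tested features at 0.05. Other scalings, filters, pseudocounts and left-out libraries were alternatives. RPKM scaling to the library total carries any library-wide change in reads within peaks into each peak. Fits were tested on simulated data in which all but the chosen peaks were unchanged, unlike here. In H3K18La 16 of 100 4-fold and 84 of 100 16-fold changes were called, with 0 unchanged peaks called. In H3K27Ac 60 and 100 of 100 were called, with 5 unchanged peaks called. Most 4-fold changes in H3K18La were missed there, so a peak that did not pass may still have changed. Named peaks were, for each gene, the promoter and the other peak of highest mean level across the libraries, and of each further list up to 3 loci with the largest change per mark. The peak over the Arntl start, the Arntl segments, the other promoter peaks of Per1 and Dbp, a second intergenic Nr1d1 peak, a distal Cry1 peak and the interaction over loci were chosen after values were seen. The members and lists were chosen with earlier results of these data known. Replicates were called biological, and which animals they came from is not given in the sources used here. H3K18La p-values measure the spread between these libraries, moderated over features of similar level. In the main H3K27Ac fits the prior degrees of freedom of limma were infinite. The own spread of each peak or locus was thus replaced by that of all features of similar level, and its p-value does not measure its own spread. Counting limits cover counting error only. Replicate pairs differed by more than counting noise. Coordinates are GRCm38.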

Additional observations from a re-analysis of the deposited data

How the results depend on the processing

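Among the clock peaks called higher, 34 in H3K18La and 36 in H3K27Ac, a threshold of 0.01 left 19 and 12. Over all peaks it left 12367 of 65614 and 9826 of 72442. Centring on the all-peak median left 2 and 5 clock peaks (1008 and 1041 of all), and centring on the weakest decile 18 and 16 (11192 and 10566 of all). Scaling to reads in peaks left 0 clock peaks and 0 of all in either mark. Without a minimum mean RPKM, 0 H3K27Ac peaks and 0 H3K27Ac loci passed, among the clock genes or over all. Of the 10 loci called in each mark, centring on the median left 2 in H3K18La (1311 of 14877 over all loci) and 0 in H3K27Ac (159 of 17544). Scaling to reads in peaks left 0 in each, and 0 over all loci. The threshold of 0.01 left 7 in H3K18La (5222 over all loci) and 5 in H3K27Ac (5688). From promoter peaks alone 8 of 10 H3K18La loci passed (40% of all loci), without Cry2 (log2 0.72, limma adjusted p = 0.161) and Per2 (adjusted p = 0.08), and all 10 passed in H3K27Ac (65.9% of all). With a 2-fold minimum 7 and 10 clock loci were called higher, where 6303 of 14877 and 8811 of 17544 loci were. From non-promoter peaks alone fewer clock loci could be tested, and 5 of 5 passed in H3K18La (61.7% of all) and 5 of 7 in H3K27Ac (43.2% of all). Leaving out 1 library gave 23 to 32 H3K18La peaks, 8 to 10 H3K18La loci, 0 to 49 H3K27Ac peaks, 0 to 10 H3K27Ac loci and 0 to 0 interaction calls. Apart from the loci with too few peaks to test, the cause of these losses was not tested.

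The median log2 change of clock peaks in H3K18La, 1.45, was 1.33 without a minimum, 1.62 and 1.30 with pseudocounts of 0.1 and 1, 0.54 centred on the median, 0.19 scaled to reads in peaks, 1.06 centred on the weakest decile, 1.35 with 5 mM libraries 2 and 3 taken as 1 sample, and 1.30 to 1.48 without 1 library. In H3K27Ac, 1.31 became 0.62 and 0.14 under centring on the median and scaling to reads in peaks, and 0.99 to 1.64 without 1 library.

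Scaling to reads in peaks left 19 of 51 clock peaks negative in H3K18La and 19 of 55 in H3K27Ac, and centring on the median 12 and 6, against 1 and 1 as reported. Among the loci and the peaks named for their level, H3K18La log2 changes that reversed under scaling to reads in peaks were -0.20 (Clock locus), -0.37 (Per2 locus and promoter peak), -0.11 (Dbp locus), -0.50 (Cry2 promoter), -0.0489 (Clock promoter), -0.12 (Dbp promoter), -0.0426 (Cry1 non-promoter) and -0.35 (Nr1d2 non-promoter). The H3K27Ac values were -0.0906 (Per3 locus and promoter peak), -0.20 (Arntl non-promoter), -0.61 (Cry1 non-promoter), -0.40 (Per1 non-promoter) and -0.54 (Nr1d2 non-promoter). Among the same loci and peaks, centring on the median reversed H3K18La at the Per2 locus (-0.0225), the Per2 promoter (-0.0866), the Cry2 promoter (-0.19) and the Nr1d2 non-promoter peak (-0.0948), and H3K27Ac at the non-promoter peaks of Cry1 (-0.0545) and Nr1d2 (-0.0223).

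Same-numbered libraries deviated together with correlations of 0.01 to 0.03, so the numbers were not taken to pair the samples. With the replicate block, 33 H3K18La clock peaks (23864 of 65614 over all peaks) and 10 clock loci (8056 of 14877 over all loci) were called higher. In H3K27Ac it was 6 clock peaks (7864 of 72442 over all) and 0 clock loci (1055 of 17544). A planned count model on the recovered reads was run and then dropped, since count models were kept for values deposited as counts, and its values are not given. H3K27Ac rests on 2 libraries per group and H3K18La at 5 mM on few reads per peak.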
